A study of Komagataella pastoris with 6 samples.

Results

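The genes described here are those of vesicle traffic from the endoplasmic reticulum (ER) to the Golgi apparatus and on to the cell surface in *Komagataella pastoris*, the yeast also called *Pichia pastoris*, which grows on methanol and is used to secrete proteins. They were taken from the table of all genes by the words of their product descriptions (TRAPP, COPII, COPI, coatomer, SNARE, exocyst, Golgi, secretory vesicle or exocytosis). Descriptions that also named the vacuole, endosomes, autophagy, mannosyltransferases, glycosylation, sterols or ubiquitin were left out. This gave 74 of 5030 genes, 34 of them matched by the word Golgi alone. Messenger RNA was measured in 3 libraries of an HTX-33 derivative that overexpresses Ilv3, called the ILV3 strain here, and in 3 libraries of the control strain HTX-33, which the labels call wild type. All cultures of both strains grew in a salt medium with 0.5% methanol and were harvested in exponential phase, and the series design calls the 3 libraries of a strain biological replicates. The sources used here do not give the promoter that drives ILV3 or the number of clones behind each strain.

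Secretory cargo leaves the ER in vesicles with a COPII coat, and COPI-coated vesicles carry material back from the Golgi to the ER and between Golgi cisternae. Tethering complexes such as TRAPP, the conserved oligomeric Golgi (COG) complex and the exocyst catch a vesicle at its target membrane, small GTPases of the Rab and Arf families direct the process, and SNARE proteins on both membranes drive fusion. Most of this machinery was worked out in *Saccharomyces cerevisiae*, and the roles and protein names given below come from that yeast, as read from the descriptions. None of the 5030 gene IDs has an entry in the available reference list (0 matched), so no symbol, position or sequence is given.

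Levels are the deposited values, which sum to 1000000 in every library and are treated as TPM (relative transcript abundance, scaled by transcript length and library). Depth is not given by such values, so no counting interval is stated. A change is given as a log2 fold change, ILV3 strain over control, computed from log2(TPM + 1), a scale that understates the changes of weak transcripts. A gene was called, or said to rise or fall, at an adjusted p under 0.05 in a limma fit over the 5025 genes whose mean reached 1 TPM. Errors of means are SD over n = 3 libraries. In bulk RNA, fewer cells of a type and less RNA per cell cannot be told apart. The labels were checked with ILV3 itself (PAS_chr1-4_0458), which was at 2564, 2680.1 and 2633 TPM in the ILV3 libraries, against 88.0, 79.8 and 91.9 TPM in the control libraries. Alcohol oxidase (PAS_chr4_0821), a mark of growth on methanol, was at 30219 ± 1998 TPM in the ILV3 strain, against 21686 ± 704 TPM in the control. Control replicate 2 was the lowest of the 3 control libraries in 56 of the 74 traffic genes (75.7%), and in 66.4% of all tested genes. Without it, 10 traffic genes were called higher and 23 lower, where 21.1% of all tested genes were called higher and 32.4% lower. ILV3 replicate 3 was the lowest of its strain in 36 of the 74 (48.6%), and in 50.1% of all tested genes. Without that library 8 traffic genes were called higher and 17 lower, where 19.6% of all tested genes were called higher and 22.6% lower. The part of these libraries in single results was not tested beyond leaving each out.

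All 74 traffic genes passed the filter, and none was listed at 0 in any library. Of these, 11 rose, 21 fell and 42 were not called. The share called was 43.2%, against 49.3% of all tested genes. Calls in the higher direction made up 14.9% of the traffic genes and 22.1% of all tested genes, and calls in the lower direction 28.4% and 27.2%. The split depended on the scaling: with median-ratio scaling 16 were higher and 19 lower, and with quantile normalization 18 were higher and 18 lower. All tested genes shifted with it, to 26.1% higher and 27.2% lower with median-ratio scaling and to 29.8% higher and 25.4% lower with quantile normalization. The median log2 fold change was -0.03 in the traffic genes and -0.02 over all tested genes. Changes were small, with 63.5% of the traffic genes and 52.9% of all tested genes within 0.2 of zero on the log2 scale. A call with a change of at least 1.5-fold was made for 3 of the 74, or 4.05%, against 10.3% of all tested genes, and at least 2-fold for 1 of the 74, against 3.1% of all tested genes. There was no overlap between the strains in 38 of the 74 genes (14 with the ILV3 libraries above and 24 with them below), while 57.2% of all tested genes showed no overlap (26.8% above and 30.5% below). In summed level the 74 genes held 5203, 5272 and 5199.8 TPM in the ILV3 libraries, against 5477, 5258 and 5490.3 TPM in the control libraries, and the sums of the strains overlapped through control replicate 2. Their median level in the control was 51.9 TPM, close to the median of 49.8 TPM over all genes, and 14 of the 74 were above 100 TPM there.

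**Figure D1:**
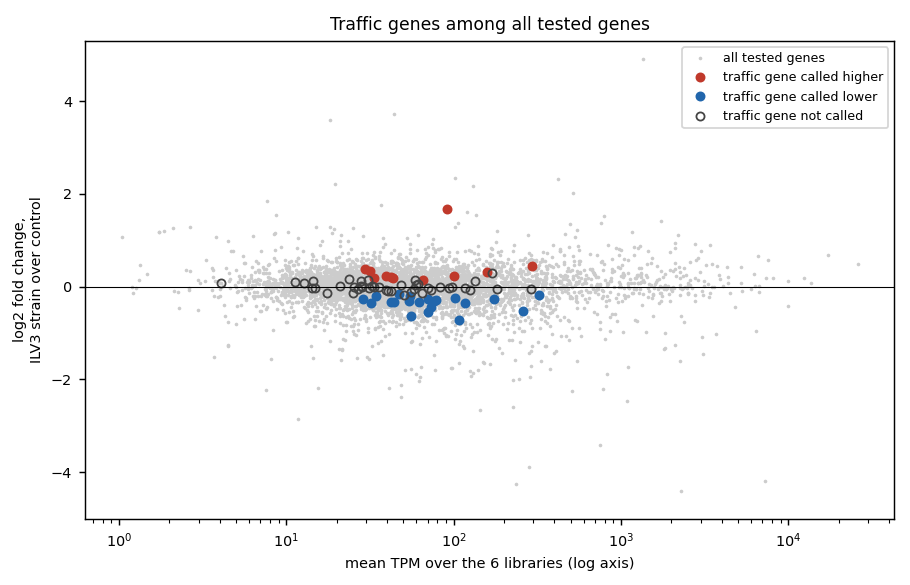
Each point is a gene, with its mean TPM over the 6 libraries on a log axis and its log2 fold change, ILV3 over control, on the vertical axis; traffic genes are coloured by call over all tested genes in grey. The traffic genes lie between -0.72 and 0.44, apart from a single TRAPP subunit at 1.67.

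**Figure D2:**
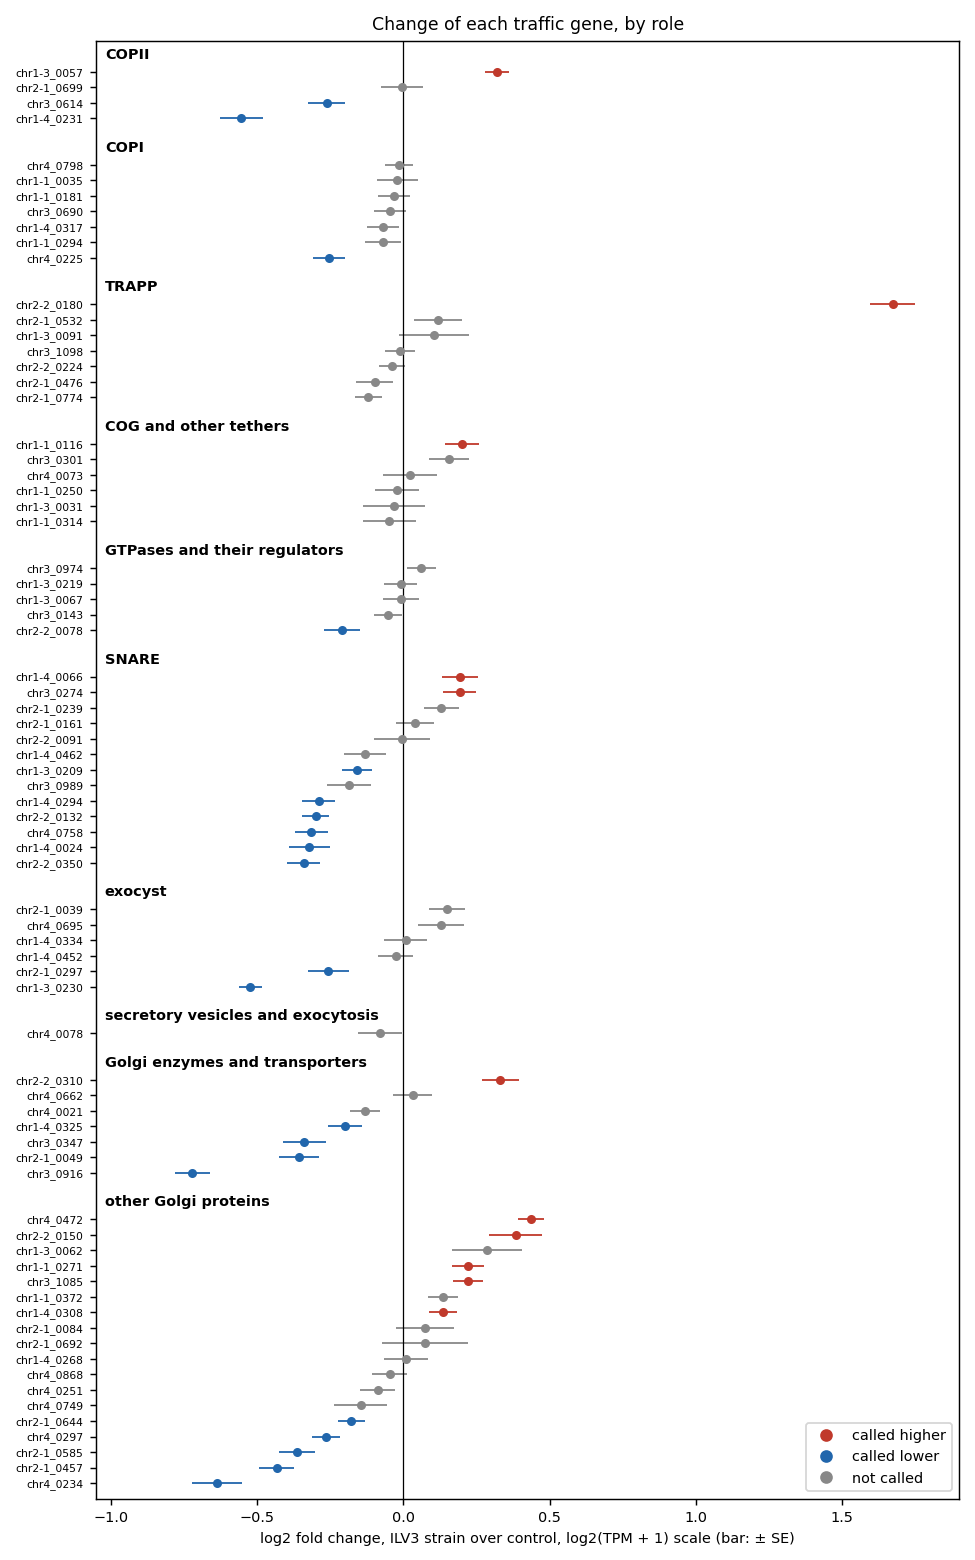
Log2 fold change of each of the 74 traffic genes, ILV3 strain over control, with bars of 1 SE, ordered by role; red marks genes called higher (11), blue genes called lower (21) and grey genes not called (42). COPI, TRAPP, the Golgi tethers, and the GTPases with their regulators hold 1 called gene each. The single gene of the secretory vesicle and exocytosis role was not called. The roles were not tested against each other, and 49.3% of all tested genes were called.

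The COPII coat buds vesicles from the ER. Its 3 coat components in the list all changed, and not in the same direction. Of all tested genes, 49.3% were called. The p150 component of the outer coat (PAS_chr1-4_0231, Sec31 in yeast) was at 55.2, 59.9 and 55.1 TPM in the ILV3 libraries, against 88.6, 74.9 and 88.4 TPM in the control libraries. It fell (log2 fold change -0.55, SE 0.07, adjusted p = 0.000259), with no overlap between the strains and control replicate 2 the lowest of the controls. A component of the inner-coat Sec23-Sec24 complex (PAS_chr3_0614), which binds cargo and the GTPase Sar1, was at 62.3, 67.8 and 62.7 TPM in the ILV3 libraries, against 80.3, 71.4 and 80.3 TPM in the control libraries. It also fell, by less (log2 fold change -0.26, SE 0.06, adjusted p = 0.00701). The component that COPII shares with the Nup84 part of the nuclear pore (PAS_chr1-3_0057, Sec13 in yeast) was at 174, 176 and 182 TPM in the ILV3 libraries, against 139, 141 and 145 TPM in the control libraries, and rose (log2 fold change 0.32, SE 0.04, adjusted p = 0.000244). In every ILV3 library it lay above every control library. Sec13 and Sec31 together build the outer cage in yeast. The ratio of the Sec13-type to the Sec31-type transcript was 3.14, 2.94 and 3.30 in the ILV3 libraries, against 1.57, 1.88 and 1.64 in the control libraries. The remaining gene of the group, a deacylase of GPI anchors that restrains COPII budding (PAS_chr2-1_0699), was not called, at 33.5 ± 1.56 TPM in the ILV3 strain, against 33.6 ± 2.71 TPM in the control (adjusted p = 0.974).

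Coatomer, the COPI coat, is a complex of 7 subunits, and all 7 were measured. Only gamma-COP (PAS_chr4_0225, Sec21 in yeast), part of the cargo-binding layer, was called, where 49.3% of all tested genes were called. It was at 92.7, 96.2 and 90.3 TPM in the ILV3 libraries, against 114, 104 and 115 TPM in the control libraries, and fell (log2 fold change -0.25, SE 0.05, adjusted p = 0.00418) with no overlap between strains. The other 6 subunits overlapped between the strains, where 57.2% of all tested genes showed no overlap. Their log2 fold changes were -0.07 to -0.01, with adjusted p of 0.336 to 0.835. The most abundant was epsilon-COP (PAS_chr3_0690), at 172, 186 and 178 TPM in the ILV3 libraries, against 180.5, 197 and 177 TPM in the control libraries. Alpha-COP (PAS_chr1-1_0294), of the outer layer, was at 71.4 ± 4.03 TPM in the ILV3 strain, against 75.02 ± 4.64 TPM in the control, and delta-COP (PAS_chr1-1_0035), the least abundant in the control, was at 69.3 ± 2.82 TPM in the ILV3 strain, against 70.4 ± 6.48 TPM in the control. The highest subunit stood at 2.58 times the lowest in the ILV3 strain, and at 2.62 times in the control. The sign of these small differences depended on the scaling: 7 of 7 subunits were below zero as deposited, 5 of 7 with median-ratio scaling and 2 of 7 with quantile normalization, and gamma-COP was called lower in each. Control replicate 2 was the lowest control library for 5 of the 7 subunits, but the highest for epsilon-COP.

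**Figure D3:**
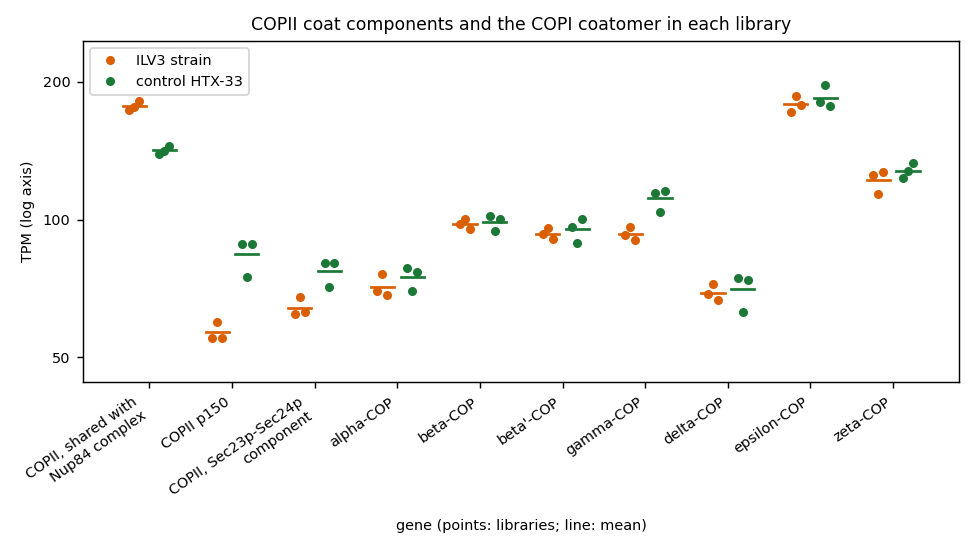
TPM of the 3 COPII coat components and the 7 COPI subunits in each library on a log axis, with ILV3 libraries left of control libraries for each gene and a line at the mean. The p150 component is at 55.1 to 59.9 TPM in the ILV3 libraries and at 74.9 to 88.6 TPM in the control libraries. The strains overlap in 6 of the 7 COPI subunits, while 57.2% of all tested genes showed no overlap.

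TRAPP (transport protein particle) tethers COPII vesicles at the early Golgi and activates the Rab GTPase Ypt1 in yeast. Of its 7 measured subunits, 1 rose and 6 were not called, where 22.1% of all tested genes rose. The subunit that rose (PAS_chr2-2_0180) was at 139, 132 and 145 TPM in the ILV3 libraries, against 37.8, 46.3 and 44.7 TPM in the control libraries. Its lowest ILV3 library lay far above its highest control library, its log2 fold change of 1.67 (SE 0.08, adjusted p = 3.94e-07) was the highest of the 74 genes, and 11 genes of all tested, this gene included, had a change that high or higher. The next highest traffic gene was at 0.44. Set against the rest of its complex, it made up 30.3%, 29.1% and 31.7% of the summed TRAPP level in the ILV3 libraries, against 10.2%, 12.4% and 12.2% in the control libraries. It ranked 1 of 7 by level in each ILV3 library, and 4 or 5 of 7 in each control library. The other 6 subunits together held 318 ± 4.09 TPM in the ILV3 strain, against 327 ± 5.29 TPM in the control.

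The other TRAPP subunits had log2 fold changes of -0.12 to 0.12. The most abundant of them (PAS_chr2-2_0224) was at 119, 115 and 113 TPM in the ILV3 libraries, against 120.3, 122 and 114 TPM in the control libraries, which overlapped. The subunit PAS_chr2-1_0774 was the nearest to a call, at 53.8, 53.8 and 52.2 TPM in the ILV3 libraries, against 57.0, 57.4 and 59.4 TPM in the control libraries (adjusted p = 0.0612), and its strains did not overlap. Weaker transcripts of the complex, PAS_chr1-3_0091 and PAS_chr2-1_0532, were at 11.7 ± 0.618 TPM in the ILV3 strain, against 10.9 ± 1.86 TPM in the control, and at 15.01 ± 0.473 TPM in the ILV3 strain, against 13.8 ± 1.16 TPM in the control. Neither was called, and the strains overlapped in both. The subunits PAS_chr3_1098 and PAS_chr2-1_0476 had log2 fold changes of -0.01 and -0.10 and were not called. The descriptions do not tell which yeast subunit most of these genes stand for.

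**Figure D4:**
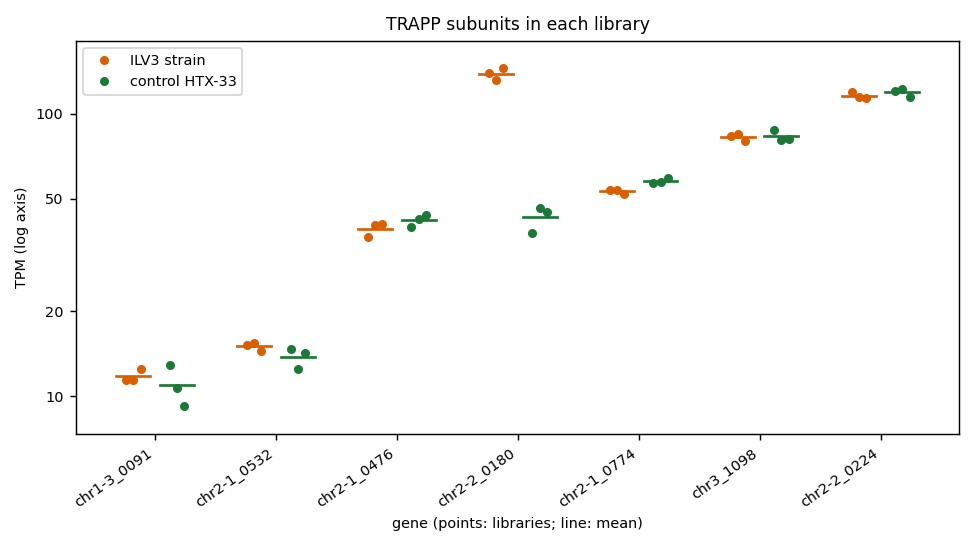
TPM of the 7 TRAPP subunits in each library on a log axis, ordered by control level, with ILV3 libraries left of control libraries and a line at the mean. The subunit chr2-2_0180 is at 131.59 to 145 TPM in the ILV3 libraries and at 37.8 to 46.3 TPM in the control libraries. In 5 of the other 6 subunits the strains overlap, while 57.2% of all tested genes showed no overlap.

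Other tethers of the Golgi were mostly not called, with 1 of 6 called, against 49.3% of all tested genes. The group holds 3 subunits of the COG complex, which returns Golgi enzymes to earlier cisternae, and 3 of GARP, which receives vesicles at the trans-Golgi. A COG subunit (PAS_chr1-1_0116), also the most abundant of the group, was at 44.6, 43.6 and 46.9 TPM in the ILV3 libraries, against 40.6, 36.7 and 39.9 TPM in the control libraries, and rose (log2 fold change 0.20, SE 0.06, adjusted p = 0.0198). That call was lost without ILV3 replicate 3 (adjusted p = 0.0762, range 0.00293 to 0.0762 over its alternatives). The other 2 COG subunits (PAS_chr1-1_0250 and PAS_chr4_0073) had log2 fold changes of -0.02 and 0.02. In GARP, PAS_chr3_0301 was at 24.6, 25.8 and 24.5 TPM in the ILV3 libraries, against 22.6, 20.7 and 23.8 TPM in the control libraries, not called (adjusted p = 0.0916) although the strains did not overlap. It was called higher with median-ratio scaling and with quantile normalization (adjusted p = 0.0132 and 0.00722, range 0.00722 to 0.239). The other 2 GARP subunits (PAS_chr1-1_0314 and PAS_chr1-3_0031) overlapped between strains, at log2 fold changes of -0.05 and -0.03.

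Of 5 small GTPases and their regulators, 1 fell and 4 were not called, where 27.2% of all tested genes fell. The GTPase that recruits Arl1 to the Golgi (PAS_chr2-2_0078, Arl3 in yeast) was at 48.7, 52.6 and 50.8 TPM in the ILV3 libraries, against 62.6, 59.0 and 54.8 TPM in the control libraries, and fell (log2 fold change -0.21, SE 0.06, adjusted p = 0.0199). Its call was lost with quantile normalization (adjusted p = 0.123), and without ILV3 replicate 1 or 3 or control replicate 1 (adjusted p = 0.0741, 0.0511 and 0.0793; range 0.0115 to 0.123). The Rab GTPase of secretory vesicles (PAS_chr3_0143, Sec4 in yeast), which readies vesicles for the exocyst, was the most abundant of the group, at 288, 275 and 293 TPM in the ILV3 libraries, against 311, 285 and 293 TPM in the control libraries. The strains overlapped and it was not called (log2 fold change -0.05, adjusted p = 0.393). A GTPase-activating protein of Arf (PAS_chr3_0974) had a log2 fold change of 0.06 and was called higher only with quantile normalization (adjusted p = 0.0143, range 0.0143 to 0.63). A cis-Golgi GTPase-activating protein (PAS_chr1-3_0219) and a subunit of the Ric1-Rgp1 exchange factor for Ypt6 (PAS_chr1-3_0067) both had log2 fold changes of -0.01.

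The word SNARE matched 13 genes, of which 2 rose, 6 fell and 5 were not called. Sorted by description after the values were seen, 9 are SNAREs and 4 are not. Among the 9 SNAREs, 5 fell, 1 rose and 3 were not called. Of all tested genes, 27.2% fell and 22.1% rose, and neither SNARE count was tested against those shares. The cis-Golgi syntaxin for fusion of ER-derived vesicles (PAS_chr1-4_0024, Sed5 in yeast) was at 58.6, 56.4 and 50.9 TPM in the ILV3 libraries, against 74.6, 65.1 and 68.2 TPM in the control libraries. It fell (log2 fold change -0.32, SE 0.07, adjusted p = 0.00464), with no overlap. Both t-SNAREs that act in fusion of secretory vesicles with the plasma membrane fell too. The t-SNARE placed in the plasma membrane itself (PAS_chr1-4_0294) was at 72.0, 69.5 and 71.0 TPM in the ILV3 libraries, against 86.6, 81.0 and 92.8 TPM in the control libraries (log2 fold change -0.29, adjusted p = 0.00262). The other of the pair (PAS_chr2-2_0132) was at 68.2, 68.3 and 67.6 TPM in the ILV3 libraries, against 86.3, 80.6 and 85.1 TPM in the control libraries (log2 fold change -0.30, adjusted p = 0.000661). In each, the ILV3 libraries lay within a narrow band below all control libraries.

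A pair of genes described only as target membrane receptors also fell. The gene PAS_chr2-2_0350 was at 39.4, 39.6 and 37.8 TPM in the ILV3 libraries, against 46.8, 51.4 and 50.6 TPM in the control libraries (log2 fold change -0.34, SE 0.06, adjusted p = 0.000939). The fall of PAS_chr1-3_0209 was smaller, at 44.5 ± 0.14 TPM in the ILV3 strain, against 49.8 ± 2.09 TPM in the control (log2 fold change -0.16, adjusted p = 0.029). This smaller call was lost with the replicate number as a block (adjusted p = 0.0879), under both other scalings (0.0695 for median-ratio, 0.221 for quantile), on leaving out any 1 ILV3 library (0.0699 to 0.0803), and on leaving out control replicate 3 (0.0995; range 0.0268 to 0.221). The SNARE that rose is described as an R-SNARE (PAS_chr3_0274), and was at 36.3, 34.0 and 37.1 TPM in the ILV3 libraries, against 31.7, 30.5 and 31.2 TPM in the control libraries (log2 fold change 0.19, SE 0.06, adjusted p = 0.0201). Its call was lost with the replicate block (adjusted p = 0.0591) and without ILV3 replicate 1 or 3 or control replicate 3 (0.0705, 0.0783 and 0.0526; range 0.00664 to 0.0783).

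The 3 SNAREs that were not called were those of ER membrane fusion, of transport within the Golgi, and a v-SNARE described only as a membrane glycoprotein. The ER t-SNARE (PAS_chr3_0989) was at 46.1, 48.1 and 47.2 TPM in the ILV3 libraries, against 59.7, 48.3 and 53.8 TPM in the control libraries (log2 fold change -0.19, adjusted p = 0.0661). Control replicate 2 lay next to its highest ILV3 library, and without that control library the gene was called lower (log2 fold change -0.26, adjusted p = 0.00752, range 0.00752 to 0.225). The Golgi v-SNARE (PAS_chr2-1_0161, Gos1 in yeast) and the glycoprotein v-SNARE (PAS_chr1-4_0462) had log2 fold changes of 0.04 and -0.13.

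Of the 4 genes in this group that are not SNAREs, 3 share a description as membrane proteins of late Golgi vesicles that carry Tlg2. Among these 3, 1 fell and 2 were not called, where 27.2% of all tested genes fell. The gene PAS_chr4_0758 was at 49.7, 49.1 and 46.5 TPM in the ILV3 libraries, against 64.2, 58.9 and 58.5 TPM in the control libraries, and fell (log2 fold change -0.31, SE 0.06, adjusted p = 0.00151). The most abundant of the group, PAS_chr2-1_0239, was at 133, 147 and 143 TPM in the ILV3 libraries, against 138, 123 and 126 TPM in the control libraries and was not called (log2 fold change 0.13, adjusted p = 0.103). It was called higher on leaving out control replicate 1 (0.0385) and under both other scalings (0.0497 for median-ratio, 0.00921 for quantile; range 0.00921 to 0.271). The last of them, PAS_chr2-2_0091, was at 36.0 ± 4.89 TPM in the ILV3 strain, against 36.0 ± 2.19 TPM in the control. The differences between these 3 genes were not tested. An effector of Sec4 that binds Sec9 (PAS_chr1-4_0066) was at 46.0, 49.0 and 44.95 TPM in the ILV3 libraries, against 40.5, 38.6 and 43.0 TPM in the control libraries, and rose (log2 fold change 0.19, SE 0.06, adjusted p = 0.0258). That call was lost with the replicate block (adjusted p = 0.067) and without ILV3 replicate 1 or 2 or control replicate 1 or 2 (0.0573, 0.0995, 0.0679 and 0.0527; range 0.00123 to 0.0995).

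The exocyst tethers secretory vesicles to the plasma membrane. Its 5 measured subunits stood at similar levels. Their means were 26.2 to 32.4 TPM in the ILV3 strain, against 26.6 to 31.7 TPM in the control. Of these subunits, 1 fell and 4 were not called, where 27.2% of all tested genes fell. The strains did not overlap in 2 of the 5, against 57.2% of all tested genes. The 113 kDa subunit (PAS_chr2-1_0297, Sec15 in yeast), which binds Sec4, was at 26.4, 27.8 and 24.5 TPM in the ILV3 libraries, against 33.2, 29.5 and 31.8 TPM in the control libraries, and was the subunit that fell (log2 fold change -0.26, SE 0.07, adjusted p = 0.0141). Its call was lost without ILV3 replicate 3 or control replicate 1 (adjusted p = 0.0557 and 0.0594; range 0.00517 to 0.0594). The 121 kDa subunit (PAS_chr2-1_0039) was at 32.3, 34.2 and 30.8 TPM in the ILV3 libraries, against 29.4, 28.1 and 30.0 TPM in the control libraries. The strains did not overlap there, but it was not called (log2 fold change 0.15, adjusted p = 0.0742). With median-ratio scaling and with quantile normalization it was called higher (0.0105 and 0.00521; range 0.00521 to 0.241), and so was the 70 kDa subunit (PAS_chr4_0695, 0.0472 and 0.0212; range 0.0212 to 0.463), whose log2 fold change as deposited was 0.13. The 100 kDa (PAS_chr1-4_0334) and 88 kDa (PAS_chr1-4_0452) subunits had log2 fold changes of 0.01 and -0.03.

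The word exocyst also matched an ER membrane protein that binds the exocyst subunit Sec6 (PAS_chr1-3_0230). It is no subunit, and its transcript was far more abundant than theirs, at 213, 211 and 217 TPM in the ILV3 libraries, against 306, 301 and 315 TPM in the control libraries. It fell (log2 fold change -0.52, SE 0.04, adjusted p = 7.66e-06), with a wide gap between the strains and libraries of each strain close together. A protein with roles in the spliceosome and in exocytosis (PAS_chr4_0078) was at 38.5 ± 2.87 TPM in the ILV3 strain, against 40.7 ± 2.98 TPM in the control and was not called (adjusted p = 0.409).

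**Figure D5:**
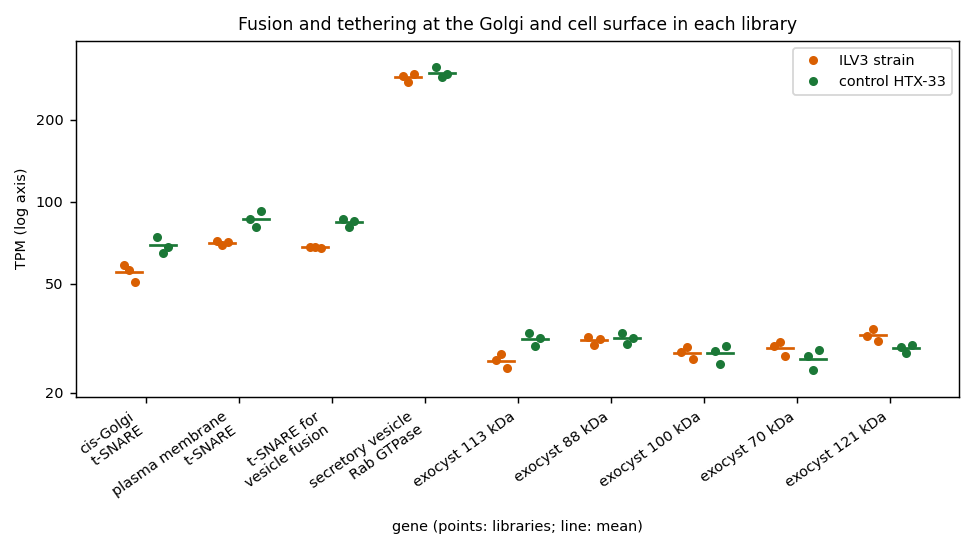
TPM in each library, on a log axis, of the cis-Golgi t-SNARE, both t-SNAREs for fusion at the plasma membrane, the Rab GTPase of secretory vesicles and 5 exocyst subunits, with ILV3 libraries left of control libraries and a line at the mean. The 3 t-SNAREs have ILV3 libraries below every control library, while the Rab GTPase and 3 of the 5 exocyst subunits overlap. No overlap was seen in 57.2% of all tested genes, and 30.5% had the ILV3 libraries below.

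Among 7 enzymes and transporters of the Golgi, of secretory vesicles or of exocytosis, 4 fell, 1 rose and 2 were not called. Of all tested genes, 27.2% fell and 22.1% rose. The GDP-mannose transporter of the Golgi (PAS_chr3_0916, Vrg4 in yeast), which brings in the donor for mannose chains on secreted proteins, had the lowest log2 fold change of the 74 genes. It was at 77.5, 87.2 and 78.4 TPM in the ILV3 libraries, against 134, 128 and 141 TPM in the control libraries, and fell (log2 fold change -0.72, SE 0.06, adjusted p = 1.59e-05), a wide gap with no overlap. Guanosine diphosphatase (PAS_chr4_0021), which makes the GMP that this transporter exchanges for GDP-mannose, was at 59.9, 64.5 and 60.8 TPM in the ILV3 libraries, against 69.0, 65.3 and 68.6 TPM in the control libraries. The strains did not overlap but it was not called (log2 fold change -0.13, SE 0.05, adjusted p = 0.06), though it was called lower without ILV3 replicate 2 and without control replicate 2 (0.0494 and 0.0321; range 0.0321 to 0.233). The ratio of transporter to diphosphatase transcript was 1.29, 1.35 and 1.29 in the ILV3 libraries, against 1.93, 1.95 and 2.06 in the control libraries.

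A pair of genes shares the description of an aminophospholipid flippase that keeps the lipid asymmetry of post-Golgi membranes. The first (PAS_chr2-1_0049) was at 27.7, 29.7 and 27.0 TPM in the ILV3 libraries, against 38.9, 34.2 and 35.8 TPM in the control libraries, and fell (log2 fold change -0.36, SE 0.07, adjusted p = 0.00214). The second (PAS_chr4_0662) was at 49.3 ± 2.82 TPM in the ILV3 strain, against 48.2 ± 3.30 TPM in the control, not called (adjusted p = 0.718); the difference between the pair was not tested. A protein kinase that regulates exocytosis (PAS_chr3_0347) was at 37.5, 39.0 and 34.6 TPM in the ILV3 libraries, against 50.03, 42.8 and 48.5 TPM in the control libraries, and fell (log2 fold change -0.34, SE 0.07, adjusted p = 0.00439). The calcium and manganese pump of the Golgi (PAS_chr1-4_0325, Pmr1 in yeast) fell by less, at 32.0 ± 0.248 TPM in the ILV3 strain, against 36.9 ± 1.87 TPM in the control (log2 fold change -0.20, adjusted p = 0.0174). The pump's call was lost with the replicate block (adjusted p = 0.0535) and without ILV3 replicate 2 or 3 or control replicate 1 or 3 (0.0520 to 0.0715; range 0.00408 to 0.0715). The enzyme that rose was a dipeptidyl aminopeptidase of the Golgi membrane (PAS_chr2-2_0310), at 35.1, 36.2 and 34.4 TPM in the ILV3 libraries, against 28.8, 25.8 and 28.8 TPM in the control libraries (log2 fold change 0.33, SE 0.06, adjusted p = 0.00224).

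The remaining 18 Golgi proteins held 5 that rose, 5 that fell and 8 that were not called. Each direction made up 27.8% of them, where 22.1% of all tested genes rose and 27.2% fell. The highest change was in a protein of exocytic transport from the Golgi (PAS_chr4_0472), at 326, 343 and 349.6 TPM in the ILV3 libraries, against 243, 258 and 251 TPM in the control libraries (log2 fold change 0.44, SE 0.04, adjusted p = 4.92e-05). A protein needed to bring the amino acid permease Gap1 from the Golgi to the cell surface (PAS_chr2-2_0150) was at 34.8, 35.1 and 30.5 TPM in the ILV3 libraries, against 28.8, 23.6 and 24.0 TPM in the control libraries, and rose (log2 fold change 0.38, SE 0.09, adjusted p = 0.00684). A protein described as possibly acting in a post-Golgi secretory pathway (PAS_chr2-1_0084) was at 13.2 ± 1.496 TPM in the ILV3 strain, against 12.46 ± 0.811 TPM in the control, with strains that overlapped and no call (adjusted p = 0.56). A conserved protein of early Golgi cisternae (PAS_chr1-1_0271) and a protein of cis-Golgi membrane traffic (PAS_chr3_1085) also rose, both with a log2 fold change of 0.22. The last gene that rose, a membrane protein resembling mammalian CASP (PAS_chr1-4_0308), had a log2 fold change of 0.14 (adjusted p = 0.0451). Its call was lost with the replicate block (0.112), without a mean-variance trend (0.0538), with robust empirical Bayes (0.0566) and without any 1 of the 6 libraries (0.0603 to 0.130; range 0.0024 to 0.13).

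The lowest of these 18 was an integral membrane protein of the early Golgi and ER (PAS_chr4_0234), at 41.3, 46.8 and 41.3 TPM in the ILV3 libraries, against 73.9, 59.6 and 69.9 TPM in the control libraries (log2 fold change -0.64, SE 0.09, adjusted p = 0.000293). A protein of ER-to-Golgi transport with no further description (PAS_chr2-1_0457) was at 59.5, 66.9 and 60.6 TPM in the ILV3 libraries, against 84.9, 80.5 and 87.8 TPM in the control libraries, and fell (log2 fold change -0.43, SE 0.06, adjusted p = 0.000344). In both, all ILV3 libraries lay below all control libraries. A cis-Golgi glutaredoxin that binds an iron-sulfur cluster (PAS_chr2-1_0585) was at 96.2, 106 and 104 TPM in the ILV3 libraries, against 133, 123 and 139.6 TPM in the control libraries, and fell (log2 fold change -0.36, SE 0.06, adjusted p = 0.00102). A Golgi protein homologous to gamma-adaptin (PAS_chr4_0297), a subunit of a clathrin adaptor, fell as well (log2 fold change -0.27, adjusted p = 0.00157). The most abundant of the 74 genes in the control was a peripheral membrane protein required for vesicle transport between ER and Golgi (PAS_chr2-1_0644). It was at 299, 290.0 and 317 TPM in the ILV3 libraries, against 332, 349 and 343 TPM in the control libraries, and fell (log2 fold change -0.18, SE 0.05, adjusted p = 0.011), a call lost with median-ratio scaling (0.0696) and with quantile normalization (0.0775; range 0.00618 to 0.0775).

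The 8 Golgi proteins without a call include an integral membrane protein required for ER-to-Golgi transport (PAS_chr1-3_0062). It was at 214, 170.5 and 178 TPM in the ILV3 libraries, against 132, 182 and 148 TPM in the control libraries (log2 fold change 0.29, adjusted p = 0.0749). Control replicate 2 lay inside the range of the ILV3 libraries, and without it the gene was called higher (log2 fold change 0.41, adjusted p = 0.0116), as it was with quantile normalization (0.0468; range 0.0116 to 0.23). A late Golgi protein with 4 membrane spans (PAS_chr1-1_0372) was next to the threshold (adjusted p = 0.0513), and was called higher with a filter at a mean of 10 TPM (0.0493), with median-ratio scaling (0.00661) and with quantile normalization (0.00144; range 0.00144 to 0.143). The least abundant of the 74, with a role in UDP-galactose transport into the Golgi (PAS_chr2-1_0692), was at 4.22 ± 0.426 TPM in the ILV3 strain, against 3.97 ± 0.601 TPM in the control. A cis-Golgi matrix protein (PAS_chr1-4_0268), the acetylated cis-Golgi protein PAS_chr4_0868, the hydrophilic trafficking protein PAS_chr4_0251 and a Golgi protein of manganese homeostasis (PAS_chr4_0749) had log2 fold changes of 0.01, -0.05, -0.09 and -0.15.

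Other genes of vesicle traffic whose descriptions lie outside the rule were counted for comparison. They are Ypt and Rab GTPases, clathrin and its adaptors, Arf proteins and cargo receptors, found by words in their descriptions. The list includes genes of endocytosis, so its counts are not those of the secretory route alone. Of these 27 genes, 6 rose, 9 fell and 12 were not called, with a median log2 fold change of -0.12. The GTPase resembling Ypt51 and mammalian Rab5 (PAS_chr1-4_0162) fell to 293 ± 3.73 TPM in the ILV3 strain, against 385 ± 10.2 TPM in the control (log2 fold change -0.39, adjusted p = 4.66e-05), and an Arf GTPase-activating protein (PAS_chr3_0559) fell to 92.6 ± 1.44 TPM in the ILV3 strain, against 121 ± 5.88 TPM in the control (log2 fold change -0.38, adjusted p = 0.000235). The exchange factor that activates Sec4 (PAS_chr2-2_0014) rose to 19.5 ± 0.421 TPM in the ILV3 strain, against 14.9 ± 0.543 TPM in the control (log2 fold change 0.37, adjusted p = 0.00162), and its target Sec4, described above, was not called. Among 83 genes of ER entry and glycosylation, 16 rose and 20 fell, with a median log2 fold change of 0.01; the split was 21 higher and 20 lower with median-ratio scaling, and 28 higher and 17 lower with quantile normalization. Among 84 vacuole and endosome genes 16 rose and 28 fell, with a median of -0.07. With median-ratio scaling the split of these 84 was the same, and with quantile normalization it was 23 higher and 21 lower. Over all tested genes, 22.1% rose and 27.2% fell. Those shares were 26.1% higher and 27.2% lower with median-ratio scaling, and 29.8% higher and 25.4% lower with quantile normalization. The called shares of the 27, 83 and 84 genes, 55.6%, 43.4% and 52.4%, lie on either side of the 49.3% of all tested genes, and no difference between the lists was tested. In the authors' deposited table, all 32 called traffic genes have the same sign of change as in the fit, as do 68 of all 74. That table was made from the same libraries, so the shared sign is no independent check of the calls. Its p-values, of unstated test and adjustment, were highest among the called genes for PAS_chr1-3_0209 (0.125), PAS_chr2-2_0078 (0.0857) and PAS_chr1-1_0271 (0.0780). Its log2 fold change of the TRAPP subunit is 1.76.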

How the data were processed

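Messenger RNA levels of 6 yeast cultures, 3 per strain, were read from the deposited table of all samples, whose 6 columns equal the libraries' own files. Per the labels, RNA was prepared with a stranded mRNA kit; per the submitters' processing notes, HISAT2, TopHat2 and DESeq2 were used, while the sources used here give no versions, genome build or annotation. The deposited values are named FPKM by the authors, but every library sums to 1000000, so they were treated as TPM. The authors' table also holds a log2 fold change and a p-value per gene, whose adjustment is not stated. The log2 fold changes were used only for sign and the value given, and the p-values only where printed.

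Values were fitted as log2(TPM + 1) with limma (version 3.58.1, R version 4.3.3) and its mean-variance trend option over the 5025 of 5030 genes whose mean reached 1 TPM, and p-values were adjusted by the Benjamini-Hochberg method over all of them. Roles were assigned by words in the descriptions. Named by rule were ILV3, up to 3 called genes per direction and role, and the most abundant gene of each role. From the list of other traffic genes, the 2 highest and 2 lowest called genes were named. Further genes are named to account for all 74. The genes and lists were chosen with earlier results of these data known.

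Same-numbered replicates of the strains deviated together (r across genes 0.223, 0.126 and 0.209, limit 0.1), so a second fit took the replicate number as a blocking factor, and its value stands beside each call among the 74 genes that it changed. This pairing comes from the values; the labels do not say what a number shares. The other alternatives changed the pseudocount, filter, scaling, trend, empirical Bayes step and libraries. The sources used here do not say how reads of similar gene copies were assigned. The depth per library is unknown.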

Additional observations from a re-analysis of the deposited data

How the results depend on the processing

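Of the 32 calls, 23 held under all 15 alternative settings of the fit (7 of the genes called higher and 16 of those called lower), 9 were lost under at least 1 setting, and no called gene changed sign. Another 9 genes gained a call under some setting. The traffic genes called higher numbered 11, and 18 with quantile normalization. All tested genes called higher went from 22.1% to 29.8%. Restricted to genes matched by more than the word Golgi, 4 (10%) were higher and 12 (30%) lower of 40. Of all tested genes, 22.1% were higher and 27.2% lower. Leaving out 1 library gave 8 to 10 higher and 17 to 23 lower, and 2120 to 2689 called genes in all. With the replicate block 8 traffic genes were higher and 19 lower, and 2211 genes were called in all; the block ended 5 calls among the 74 genes, named above, and changed no other of them. In the other lists the block left 6 higher and 7 lower of the 27 other traffic genes. It left 13 and 18 of 83 ER genes, and 16 and 22 of 84 vacuole and endosome genes. With the block, 19.6% of all tested genes were higher and 24.4% lower. Quantile normalization moved the median of all genes from -0.02 to 0.02 on the log2 scale. For ILV3 the log2 fold change was 4.85 to 4.95 throughout. The unknown depth limits what can be said of the weakest transcripts.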

Other observations

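Among the other traffic genes outside the rule, the AP-2 adaptor of clathrin-mediated endocytosis had 3 of its 4 subunits higher and 1 lower. Of all tested genes, 22.1% were called higher and 27.2% lower. The AP-2 complex was singled out after its values were seen. The mu subunit (PAS_chr2-2_0175) was at 28.1, 25.2 and 24.9 TPM in the ILV3 libraries, against 17.6, 22.5 and 19.8 TPM in the control libraries (log2 fold change 0.37, SE 0.09, adjusted p = 0.00974). The alpha subunit (PAS_chr2-1_0496) was at 16.0, 16.4 and 14.3 TPM in the ILV3 libraries, against 12.7, 9.87 and 13.1 TPM in the control libraries (log2 fold change 0.37, adjusted p = 0.0234), and the small subunit (PAS_chr3_1047) was at 55.6, 58.6 and 56.7 TPM in the ILV3 libraries, against 51.6, 42.2 and 40.9 TPM in the control libraries (log2 fold change 0.34, adjusted p = 0.00826). These 3 transcripts lay higher in the ILV3 strain, without overlap in each. The call of the alpha subunit was lost without ILV3 replicate 1 or 2 (adjusted p = 0.0703 and 0.0765; range 0.00716 to 0.0765 over its alternatives), and the other 3 subunits were called under all 15 alternatives. The beta subunit (PAS_chr3_0079) fell, at 54.1, 53.4 and 51.8 TPM in the ILV3 libraries, against 64.0, 60.1 and 65.4 TPM in the control libraries (log2 fold change -0.25, adjusted p = 0.00371). The clathrin light chain (PAS_chr1-4_0158) fell to 209.6 ± 10.3 TPM in the ILV3 strain, against 251 ± 11.2 TPM in the control. The heavy chain (PAS_chr1-4_0546) was at 196 ± 10.5 TPM in the ILV3 strain, against 203 ± 10.9 TPM in the control, and was not called (adjusted p = 0.492). The difference between the chains was not tested.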
